A study of Mus musculus with 6 samples.

Results

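The laminin-332 group consists of 4 genes: Lama3 and Lamb3, which encode the alpha-3 and beta-3 chains of the epithelial basement membrane protein laminin-332, and Itgb4 and Itga6, which encode the subunits of the integrin that holds epithelial cells to it. Its members were all probe sets whose platform annotation gave 1 of these symbols as the only gene, and there were 5 of them among 12422 probe sets that were not controls, for 4 of the 8251 genes so named. Lamb3 had a pair of probe sets and each other gene a single one. The genes were picked with their differences from 0 h in view, so those differences are given as descriptions with no test.

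The RNA of whole uterine horns came from ovariectomized 129/SvImJ wildtype female mice of 10 to 16 weeks. The strain is inbred, and ovariectomy removes the main source of ovarian hormones. Tissue was taken 14 days after ovariectomy from mice that were not injected (0 h), or from mice at 6, 12, 15, 18 or 24 h after progesterone, of which 0.2 mg was given under the skin in 0.1 mL of sesame oil. Each sample pooled 8 horns of 4 mice and was run on 1 Affymetrix array, so 6 arrays stood for 6 times with no replicates, and all differences from 0 h share the same single 0 h array. No oil-injected mice were analysed here, so hormone, vehicle and handling cannot be told apart.

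Laminin-332 is a secreted trimer, with an alpha-3 and a beta-3 chain among its parts, that lies beneath many epithelia. Integrin alpha-6 beta-4 binds it from the basal face of the epithelial cell and, through its long beta-4 tail, links it to plectin and keratin filaments in the hemidesmosome. The beta-4 subunit pairs only with alpha-6, while alpha-6 also pairs with beta-1 and is made by other cells, endothelium among them. In the uterus a basement membrane separates the luminal and glandular epithelium from the stroma, and progesterone is the ovarian hormone that prepares both compartments for an embryo.

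Among the 4 genes, the RefSeq promoter table of GRCm38.p6 held windows for Lamb3 alone, the gene that stood furthest below 0 h from 12 h on, and both are shown for that reason. Each window runs from 250 bases before an annotated start to 50 bases after it on the plus strand. The first is chr1:193301744-193302043 and the second chr1:193301993-193302292, so the starts lie 249 bases apart and the windows share 51 bases. Capitals mark motifs.
Lamb3 first window: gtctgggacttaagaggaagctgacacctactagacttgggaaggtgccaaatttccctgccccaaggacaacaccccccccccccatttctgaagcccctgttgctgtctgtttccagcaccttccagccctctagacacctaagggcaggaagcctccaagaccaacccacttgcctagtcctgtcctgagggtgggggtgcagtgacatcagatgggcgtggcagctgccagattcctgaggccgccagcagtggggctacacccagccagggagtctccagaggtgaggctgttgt
Lamb3 second window: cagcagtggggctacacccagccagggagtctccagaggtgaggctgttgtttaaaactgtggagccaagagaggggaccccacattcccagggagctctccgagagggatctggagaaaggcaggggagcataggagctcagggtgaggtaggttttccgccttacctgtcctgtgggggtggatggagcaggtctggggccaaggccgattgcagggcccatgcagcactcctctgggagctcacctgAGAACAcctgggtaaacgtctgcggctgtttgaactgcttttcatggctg
On both strands, 4 motifs were searched, none of which overlapped another in these windows. They were the AP-1 site TGANTCA, the half-site of the progesterone and glucocorticoid receptors AGAACA, the GC box GGGCGG and the TATA box TATAAA. The only match was 1 AGAACA on the plus strand of the second window, beginning at the annotated start itself. Of all 32851 promoter windows of this length, 19.0% held that half-site, 7.81% the AP-1 site, 35.7% the GC box and 13.6% the TATA box. GC content was 59.3% in each Lamb3 window, against a median of 52.7% over all windows. These letters describe the windows only and say nothing of whether a factor binds there.

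Expression values are log2 units per probe set as the authors deposited them, and no value fell below 5.39, the shared lower limit of the table. Differences were taken after setting values under the 40th percentile of the table (6.60) to that floor, so a difference from a floored value is a limit. Array medians ran from 7.12 to 7.22 log2 units. Of the 65 control probe sets, the lowest difference from 0 h on a progesterone array was -0.72 (MURINE_b1, at 18 h) and the highest 0.94 (transferrin receptor 3', at 12 h). The 3' probe set of 18S RNA lay between -0.69 and -0.25, the spike-in BioB-M between -0.28 and -0.19 and the 3' probe set of beta-actin between 0.14 and 0.38. Their part in the results was not tested. Hoxa10 and Hoxa11, the homeobox genes that mark the uterus along the female tract, were at 9.90 to 10.30 and at 10.62 to 11.21 after progesterone, against 9.47 and 9.93 at 0 h.

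Lama3, Lamb3 and Itgb4 were each at least 2-fold lower than at 0 h on all 5 progesterone arrays, and Itga6 was not 2-fold from 0 h at any time. At 6, 12, 15, 18 and 24 h, 1.1%, 1.75%, 1.58%, 1.8% and 1.39% of analysed probe sets were at least 2-fold lower, and 0.443% were so at all 5 times. At least 2-fold higher were 1.41%, 1.83%, 2.05%, 1.14% and 1.06%, and 0.339% at all 5 times. Nothing is read from 3 of 4 genes against these shares, since the genes were picked from the same contrast. The rule of 2-fold at all times just took in Ltf, whose smallest difference was -1.002, and just left out Mxi1 at -0.9998. The smallest differences of Lama3, Lamb3 and Itgb4 were -1.06, -1.10 and -1.15. In whole tissue, fewer cells of a type and less RNA per cell cannot be told apart.

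**Figure D1:**
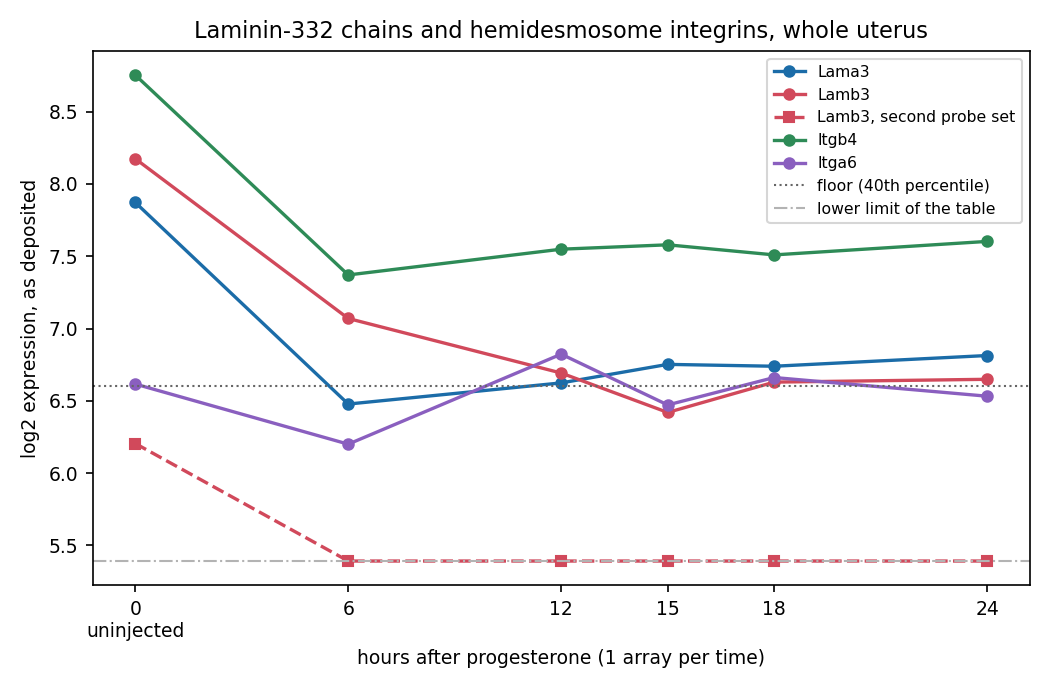
Deposited log2 expression (vertical axis) of the 5 probe sets on the 6 arrays, against hours after progesterone with uninjected 0 h at the left; each point is 1 array, and the horizontal lines are the floor of 6.60 and the lower limit of 5.39. Lama3, Lamb3 and Itgb4 are highest at 0 h, and Itga6 stays near the floor throughout.

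Lama3, the chain of laminin-332 that carries the integrin-binding end, had log2 expression of 7.87 on the 0 h array and of 6.48, 6.62, 6.75, 6.74 and 6.81 on the 6, 12, 15, 18 and 24 h arrays (Entrez Gene 16774). The 0 h array was above all progesterone arrays by at least 1.06, and the lowest value was at 6 h. The differences from 0 h were -1.27 at 6 h, a limit because that value lay under the floor, then -1.25, -1.12, -1.13 and -1.06. On the linear scale this left 42.1% of the 0 h value at 12 h and 48.0% at 24 h. The order of the progesterone arrays, from 6 h as the lowest to 24 h as the highest, covered 0.34 in deposited units. Probe sets of like level (mean within 0.25) differed between 6 and 24 h with an SD of 0.38 and between 12 and 15 h with one of 0.22. The progesterone arrays of Lama3 therefore did not differ from each other by more than that spread.

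Lamb3, a chain of the coiled coil of laminin-332, read 8.17 at 0 h, then 7.07, 6.69, 6.42, 6.63 and 6.65 over the times 6, 12, 15, 18 and 24 h on its brighter probe set (log2, Entrez Gene 16780). Its highest progesterone value was that of 6 h and its lowest that of 15 h. The differences from 0 h were -1.10, -1.48, -1.58, -1.54 and -1.53, the one at 15 h a limit. This left 46.5% of the 0 h value at 6 h and 34.7% at 24 h. From 6 to 12 h the difference of Lamb3 was -0.38, against an SD of 0.29 for probe sets of like level, while the 12, 15, 18 and 24 h arrays spanned at most 0.27 in deposited units. The second Lamb3 probe set read 6.20 at 0 h and the lower limit of 5.39 on all 5 progesterone arrays. All 6 of its values lay under the floor, so it was not analysed, and its deposited difference of -0.81 is a limit in the same direction.

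Itgb4, the subunit whose long tail reaches into the hemidesmosome, stood at 8.75 log2 units before injection (Entrez Gene 192897, chromosome 11). It then read 7.37, 7.55, 7.58, 7.51 and 7.60 in the order of the later times. It was the one gene of the 4 above the floor on all 6 arrays, so each of its differences is a size and not a limit. They were -1.38, -1.20, -1.17, -1.24 and -1.15, and the lowest array was that of 6 h. The 6 h array held 38.4% of the 0 h value and the 24 h array 45.0%. The 5 progesterone arrays spanned 0.23, less than the SD of 0.36 between 6 and 24 h at like level, while the gap from the highest of them up to 0 h was 1.15.

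Itga6, the alpha subunit that pairs with beta-4 or beta-1, stood at 6.62 log2 units at 0 h and at 6.20, 6.82, 6.47, 6.66 and 6.53 in the order of the later times (Entrez Gene 16403, chromosome 2). The 12 and 18 h arrays were above 0 h and the 6, 15 and 24 h arrays below it, so the times overlap the 0 h value. Only the 0, 12 and 18 h values were above the floor, which sets the differences to -0.02, 0.21, -0.02, 0.05 and -0.02. As deposited, the 6 h array was at -0.42 from 0 h, close to the SD of 0.40 for probe sets of like level in that comparison. The 12 h array was above the 6 h array by 0.62 as deposited, against an SD of 0.35 at like level, but the 6 h value lay under the floor. Without the floor the 5 differences were -0.42, 0.21, -0.14, 0.05 and -0.08, none of them 2-fold, and the 0 h value of 6.62 stood more than 1 log2 unit above the lower limit of 5.39.

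**Figure D2:**
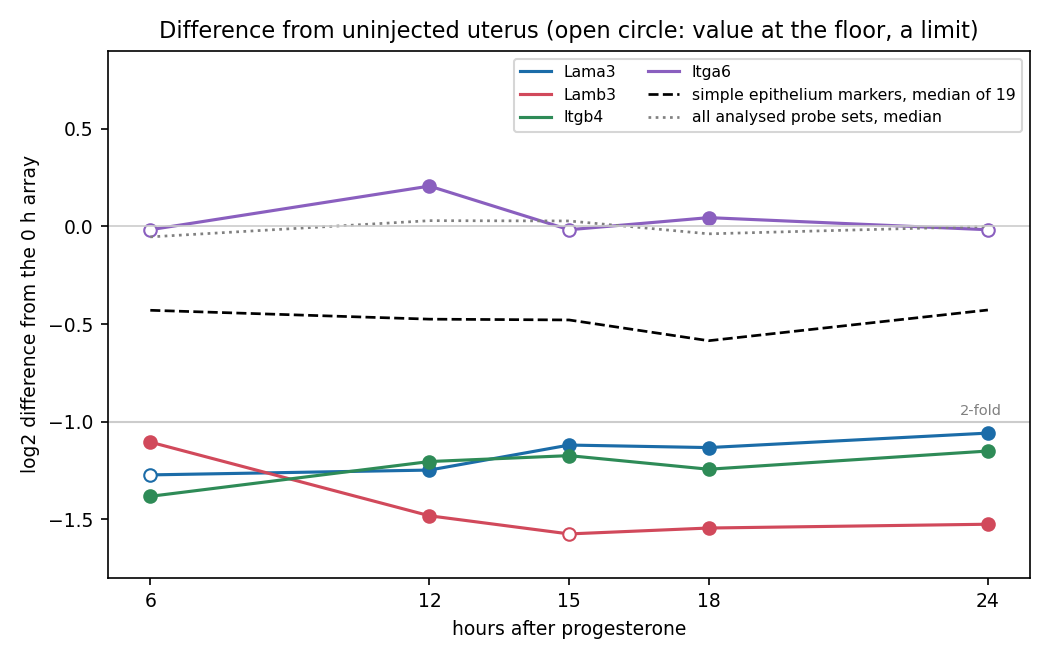
Log2 difference from the 0 h array (vertical axis) at each time after progesterone for the 4 genes, with the median of 19 simple epithelium markers (dashed) and of all analysed probe sets (dotted); open circles are limits set by the floor. Lama3 and Itgb4 lie between -1.38 and -1.06, Lamb3 is lowest at -1.58 at 15 h, and Itga6 lies between -0.02 and 0.21.

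Lama3 and Itgb4 had the most similar courses among the 4 genes, with a mean absolute gap of 0.08 between their 5 differences. Lamb3 stood 0.35 from Lama3 and 0.33 from Itgb4, and Itga6 stood 1.21, 1.49 and 1.27 from Lama3, Lamb3 and Itgb4. These gaps describe 6 arrays that share 1 baseline. Those of Itga6 also depend on the floor, since its floored differences could not lie lower than -0.02. As deposited, Itga6 was at -0.42 from 0 h on the 6 h array.

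The course after injection could be fitted without the 0 h array. The genes were picked with their differences at all 5 times in view, so the trend is not free of that choice. A linear trend over hours was fitted with limma to the 5 progesterone arrays for 7729 probe sets, and 147 of them (1.9%) passed an adjusted p of 0.05, 79 upward (1.02%) and 68 downward (0.88%). None of the 4 genes passed; 1656 probe sets, Lamb3 among them, had an unadjusted p under 0.05. Between 6 and 24 h the fitted log2 change of Lamb3 was -0.40 ± 0.16 (SE, 95% confidence interval -0.78 to -0.02, limma adjusted p = 0.211). With no floor the interval was -0.96 to 0.16. It also crossed 0 with median centring, with quantile normalization and without the intensity trend of limma. The fitted change of Lamb3 rests on the 6 h array. It was -0.03 without the 6 h array (limma adjusted p = 0.948). Without the 24 h array it was -0.71 (interval -1.19 to -0.22, limma adjusted p = 0.148). The change was 0.23 ± 0.12 for Lama3 (interval -0.04 to 0.50, limma adjusted p = 0.313). With no filter on low values the interval of Lama3 was 0.10 to 0.35 (limma adjusted p = 0.255). The change of Itgb4 was 0.20 ± 0.15 (interval -0.14 to 0.53, limma adjusted p = 0.488). For Itgb4 it was 0.06 without the 6 h array (limma adjusted p = 0.925). For Itga6 it was -0.05 ± 0.14 (interval -0.38 to 0.28, limma adjusted p = 0.893), and its sign turned without the floor (0.25) and without the 12 or 24 h array (0.015 and 0.036). Without the 6 h array the Itga6 change was -0.26. The calls of the trend as a whole were unstable, with 0 to 36 when 1 array was left out and 0 without the 6, 12 or 18 h array, so that the calls of Lama4, Sparc, Fos, Gap43 and Col1a1 given with their lists are lost there.

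**Figure D3:**
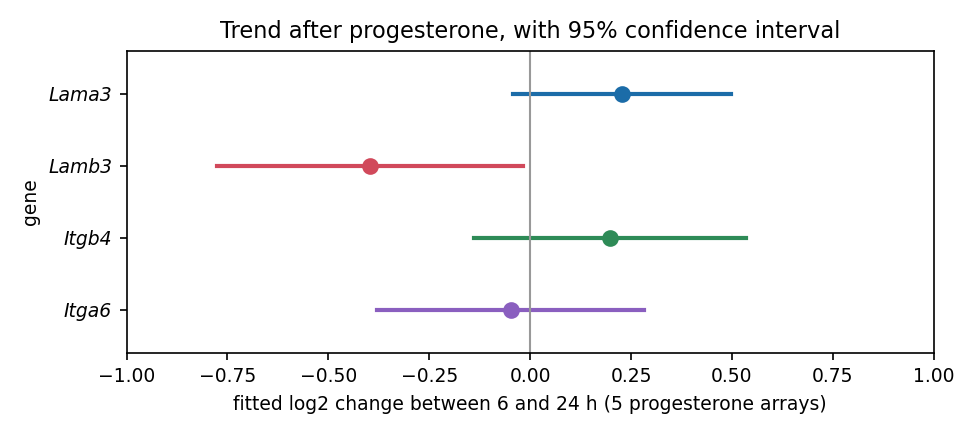
Fitted log2 change between 6 and 24 h (horizontal axis) over the 5 progesterone arrays for each gene; points are limma estimates and bars their 95% confidence intervals. The interval of Lamb3 ends at -0.02 and those of the other 3 genes cross 0, and none passed after adjustment over 7729 probe sets.

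Of the other laminin chains, 7 of the 9 listed had a probe set and 6 were analysed, of which 0 were 2-fold lower at any time. Their median difference was -0.26, -0.39, -0.37, -0.19 and -0.03 at 6, 12, 15, 18 and 24 h, beside -0.05, 0.03, 0.03, -0.04 and 0 over all analysed probe sets. Lama5, the alpha chain of most mature epithelial basement membranes, lay between -0.42 and -0.29 from its 0 h level of 8.43. Its second probe set ranged from -0.80 at 6 h to -0.08 at 18 h. Lamb2, the beta chain of many laminins with Lama5, was at -0.22 from 0 h on the 6 h array and at -0.59 on the 15 h array. Lamc1, the gamma chain of most other laminins, lay between -0.29 and 0.19. Lama4, a chain of vessel and muscle laminins, was the only one called in the trend: it rose by 0.72 ± 0.14 between 6 and 24 h (limma adjusted p = 0.0476), and its 6 h array was -0.64 from 0 h.

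Among the other integrin subunits, 11 of 15 had a probe set and 7 were analysed, with medians of -0.30, -0.11, -0.08, -0.12 and 0.03 over the 5 times; 0 passed the trend. Itga3, which with beta-1 forms the second main receptor of laminin-332, was at 9.26 at 0 h and between 0.03 and 0.26 above it afterwards, while its second probe set lay between -0.24 and 0.08. Itgb1, the partner of alpha-3 and of alpha-6, was at 11.16 at 0 h and between -0.19 and 0.06 from it. Itgb5, which pairs with alpha-v on matrix proteins other than laminin, was the one subunit at least 2-fold lower at 3 times, with differences of -0.39, -1.06, -1.05, -0.96 and -1.05 over the 5 times. Like Lamb3, it was lower at 12 h than at 6 h. Its second probe set stayed between -0.38 and -0.09.

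Of 8 hemidesmosome partners, 5 had a probe set and 2 were analysed. Plec, the plakin that ties beta-4 to keratin filaments, was at 8.23 at 0 h and between -0.30 and -0.22 from it. Cd151, a tetraspanin bound to laminin-binding integrins, was at -0.42 from 0 h on the 6 h array and lay between -0.11 and 0.05 at the later times. Its other analysed probe sets ranged from -0.39 to -0.01 and from -0.46 to 0.06. Col17a1, the transmembrane collagen that marks the stratified type of hemidesmosome, read 5.62 at 0 h and 5.39 to 5.62 after progesterone, under the floor on all arrays, as did Krt5 and Krt14.

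Of the other components of basement membranes, 5 of 9 were below 0 h at 6 h and 3 of 9 at each later time. Of 20 listed genes, 15 had a probe set and 9 were analysed, and 0 were 2-fold lower at any time, while Col4a2 at 18 h and Sparc at 24 h were 2-fold higher. Their medians were -0.15, 0.21, 0.20, 0.48 and 0.55 over the 5 times, beside -0.05, 0.03, 0.03, -0.04 and 0 over all analysed probe sets. Col4a1 and Col4a2, the chains of the common type IV collagen network, were above 0 h by 0.43 and 0.17 at 6 h and by 0.88 and 0.87 at 24 h, without passing the trend (limma adjusted p = 0.0894 and 0.11). Sparc, which binds collagen IV, rose by 1.41 ± 0.16 between 6 and 24 h (limma adjusted p = 0.0164), the 1 gene of the list called. Agrn, a heparan sulfate proteoglycan that binds laminins, lay between -0.57 and -0.27 on 1 probe set and between -0.37 and 0.01 on the other.

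**Figure D4:**
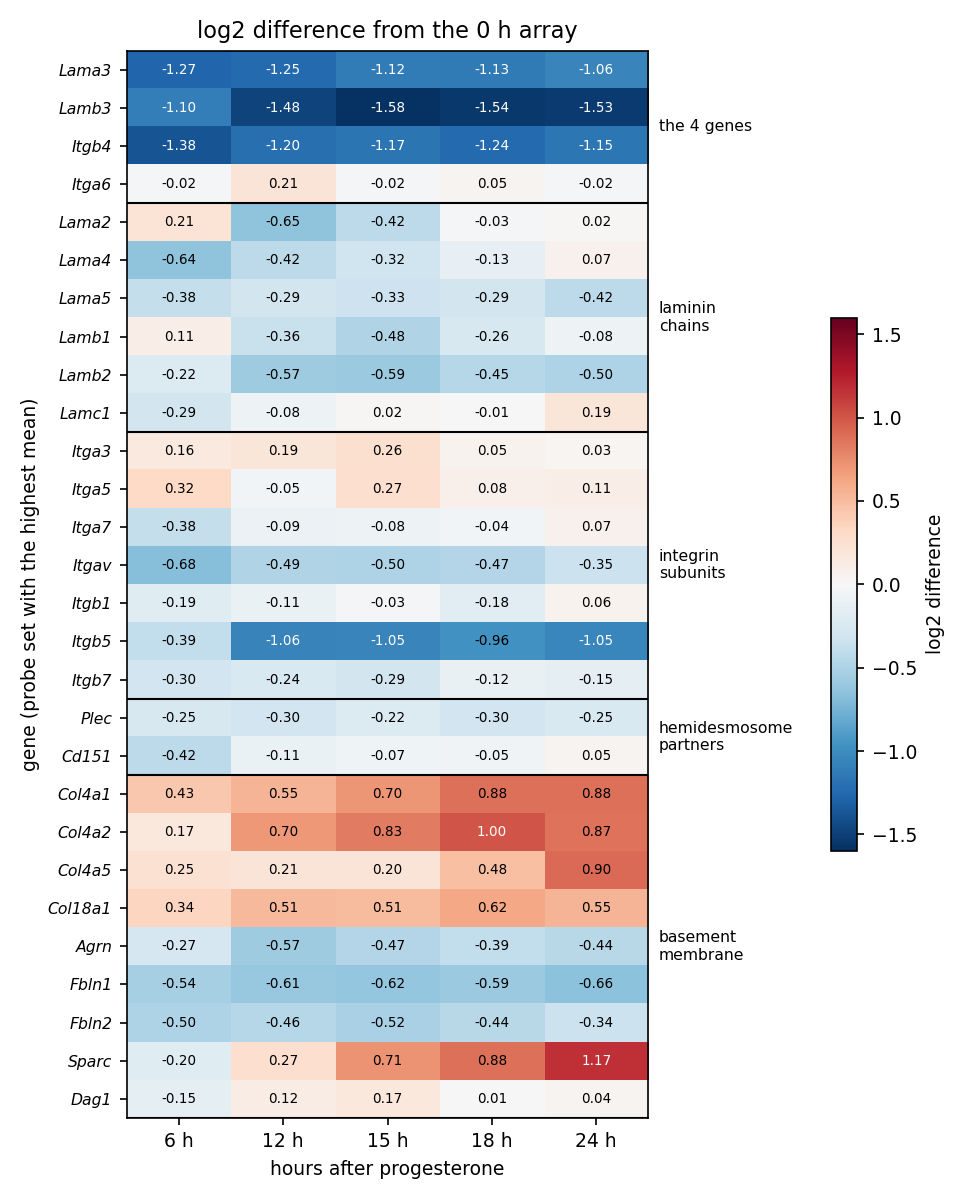
Log2 difference from the 0 h array at 6, 12, 15, 18 and 24 h (columns) for the 4 genes and for analysed laminin chains, integrin subunits, hemidesmosome partners and basement membrane genes (rows, 1 probe set per gene), printed in each cell. Lama3, Lamb3 and Itgb4 are below -1 in all columns, Itgb5 in 3, and the type IV collagens Col4a1 and Col4a2 are above 0 in each.

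Proteases that cut laminins and their inhibitors had 9 of 16 analysed, with medians between -0.26 and -0.09, 0 at 2-fold at any time and 0 in the trend. The genes of integrin signalling had 11 of 16 analysed, with medians between -0.16 and 0.09, 0 at 2-fold and 0 in the trend, taking 1 probe set per gene. The weaker probe set of Vcl, which encodes the focal adhesion protein vinculin, was above 0 h by 0.76 to 1.17 and at least 2-fold at 18 and 24 h, while the brighter one was above it by 0.21 to 0.56. Of 8 listed AP-1 subunits and Trp63, 6 were analysed, with medians between -0.19 and -0.02. Fos, an AP-1 subunit, was at least 1.33 higher than at 0 h at 6 h. It fell by 1.36 ± 0.25 between 6 and 24 h (limma adjusted p = 0.0423). Its 18 and 24 h values lay under the floor and were set to it.

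Markers of simple epithelium stood below 0 h for 14 to 18 of 19 genes on the same arrays. Which cells carried the RNA of the 4 genes was not tested. Of 25 listed, 22 had a probe set and 19 were analysed. Their medians were -0.43, -0.47, -0.48, -0.59 and -0.43 over the 5 times. The medians over all analysed probe sets were -0.05, 0.03, 0.03, -0.04 and 0. The summed linear signal of the 22 was 9848 to 11761 on the progesterone arrays, against 14324 at 0 h, and Wnt7a was at the lower limit on all arrays. Over the 5 times 3, 2, 3, 5 and 5 of the 19 were at least 2-fold lower than at 0 h. Ltf, Epcam, Krt18 and Krt7 were 2-fold lower at 3 times or more, with medians of -1.62, -1.11, -1.03 and -1.14. Over the 5 times, 0, 1, 2, 4 and 3 of the 19 were below Lama3, 0, 1, 1, 1 and 1 below Lamb3, and 0, 1, 1, 2 and 3 below Itgb4. Below Itga6 were 15, 15, 15, 18 and 15 of them. Its floored differences at 6, 15 and 24 h could not lie lower than -0.02, so the counts at those times are upper limits. As deposited, Itga6 was at -0.42 at 6 h. The count for Lamb3 at 15 h is an upper limit too. Nothing is read from any of these counts, since the 4 genes were picked with the same differences in view. The part of the epithelial share of the tissue in the differences of the 4 genes was not tested.

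Markers of the other cell types of the tissue were followed too, with genes that lack a value left out of medians and sums. Basal epithelium markers had 3 of 10 analysed, with medians between -0.40 and -0.01, and a summed signal of 729 to 793 after progesterone, against 891 at 0 h, with Krt14 and Krt15 at the lower limit. Nerve and Schwann cell markers had 5 of 10 analysed, with medians between -0.40 and -0.07, a summed signal of 1963 to 2189, against 2604 at 0 h, and Nefl at the lower limit. Mbp among them was at -1.51 to -1.05 on its brighter probe set, while the other lay between -0.23 and 0.01. Gap43, a growth cone protein, was at -0.40, 0.45, 0.82 and 1.52 from 0 h on the 6, 12, 15 and 18 h arrays and had no 24 h value. It rose in the trend, fitted to those 4 arrays (limma adjusted p = 0.0164). Endothelial markers had 10 of 12 analysed, with medians between -0.20 and 0.06 and a sum of 3803 to 4296, against 4904 at 0 h, and Cldn5 was at -1.47 to -1.05. Mesothelial markers had 3 of 6 analysed, with medians between -0.58 and -0.23, and a sum of 1933 to 2434, against 3112 at 0 h. Adipocyte markers had 4 of 9 analysed, of which 3 had a difference, with medians between -0.99 and -0.60, a sum of 1046 to 1435, against 2031 at 0 h, and Pparg at the lower limit. Adipoq was at -2.53 on the 15 h array and at -0.96 on the 12 h array. Stromal markers had 12 of 13 analysed with medians between -0.03 and 0.41, smooth muscle 9 of 11 with -0.10 to 0.54, and leukocytes 5 of 10 with -0.34 to -0.12. Their sums were 20375 to 25886, against 20160 at 0 h, 16257 to 22940, against 16885, and 2305 to 2793, against 2721, with Adgre1, Cd3g and Cd79b at the lower limit. Col1a1, in the stromal list, was at 0.51, 1.25, 1.35, 1.61 and 1.79 from 0 h over the 5 times and rose by 1.25 ± 0.18 between 6 and 24 h (limma adjusted p = 0.0297). In the trend over 6 to 24 h the stromal list had 3 genes called, all upward, the nerve list 1 upward, the simple epithelium list 1 downward and the other cell type lists 0.

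The genes of the table nearest in course were sought by the smallest mean absolute gap between the 5 differences, among 6578 probe sets with 1 symbol and above the floor at 0 h. For Lama3 they were Mxi1, an antagonist of Myc, Rtn2, a reticulon, Ifit1, an interferon-induced gene, Gabarapl1, of autophagy, and Cd55, a complement inhibitor, at gaps of 0.05 to 0.09. For Lamb3 they were Lifr, the receptor of leukemia inhibitory factor, Lox, which cross-links collagen, Blnk, a B cell adaptor, Efnb2, an ephrin, and Adra2c, an adrenergic receptor, at 0.08 to 0.13. Lifr had differences of -1.33, -1.50, -1.63, -1.56 and -1.45, close to those of Lamb3 from 12 h on and lower at 6 h. For Itgb4 they were Irs2, an insulin receptor substrate, Ifit1, AW112010, Mxi1 and Mbp, a myelin protein, at 0.09 to 0.13. Ifit1 and Mxi1 thus stood near both Lama3 and Itgb4. For Itga6 they were Map2k2, Muc13, Selplg, Tcp10b and Atad3a, at 0.02 to 0.03, all within 0.21 of 0 h. Rtn2 and Ifit1 lay under the floor at 4 of the 5 times, Lox at 3 and Irs2 at 2, which flattens their courses. Itga6 itself lay under it at 6, 15 and 24 h, Lama3 at 6 h and Lamb3 at 15 h. The small gaps of the Itga6 neighbours are therefore gaps to a course that the floor flattens.

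**Figure D5:**
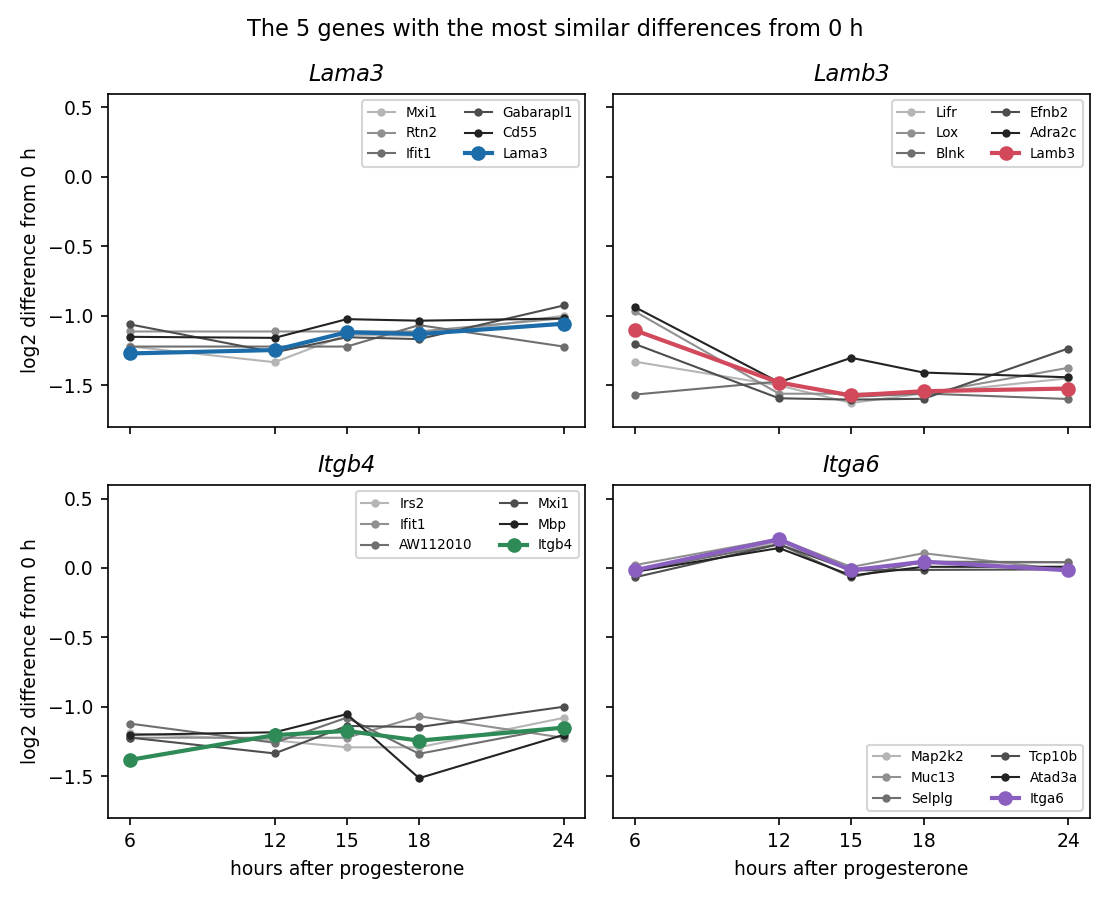
Log2 difference from 0 h (vertical axis) against hours after progesterone for each of the 4 genes (colour) and the 5 genes of the table nearest to it by mean absolute gap (grey and black). The neighbours of Lama3 and Itgb4 lie between -1.51 and -0.93 at all times, those of Lamb3 between -1.63 and -1.24 from 12 h on, and those of Itga6 stay within 0.21 of 0.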

How the data were processed

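Whole-uterus RNA of 6 times, 1 array each, was analysed from 1 table of 12487 probe sets, 65 of them controls that were left out; 121 values were missing and stayed so. The authors deposited log2 expression, made with software, background correction and normalization not given in the sources used here; 99.8% of values turned to round linear numbers at base 2 and 6.42% at the natural base. The shared lower limit compresses differences of weak genes. Values were used without further scaling, and those under the 40th percentile (6.60) were set to it. Analysed were 7731 probe sets above this floor on at least 2 arrays, including 4 of the 5 members.

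Gene names came from the platform annotation, which gave 1 symbol to 10833 probe sets, several to 396 and none to 1193. A gene's value is its probe set with the highest mean. The search for nearest genes instead took any analysed probe set with 1 symbol, so a gene named there may rest on a weaker one. Differences from 0 h were counted at 2-fold with no test. The trend was fitted with limma 3.58.1 in R 4.3.3 (lmFit, eBayes with an intensity trend) to the 5 progesterone arrays, with 3 residual degrees of freedom and Benjamini-Hochberg adjustment over 7729 probe sets. The fit was tested on simulated data. P-values measure the spread between pooled samples around a line, with no replicate of any time. Alternatives were other floors, median centring, quantile normalization, no filter, no intensity trend, each array left out, and the 0 h array added.

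Every probe set of the 4 genes is given, with list genes at least 2-fold from 0 h at 3 or more times, Col17a1, Itga3, Itgb1, Lama5, Cd151 and the 5 genes nearest to each member. Other list genes, among them those called in the trend or quoted for their role, were picked after their values were seen. The members, lists and motifs were chosen with earlier results of these data known. Promoter sequences are from RefSeq, GRCm38.p6.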

Additional observations from a re-analysis of the deposited data

How the results depend on the processing

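Lama3, Lamb3 and Itgb4 stayed at least 2-fold lower at all 5 times with no floor, with the floor at the 20th percentile (equal to the lower limit, so the same values), with median centring, with quantile normalization and with no filter. With the floor at the 60th percentile 1 of the 4 genes, Itgb4, was 2-fold lower at each time, since that floor lies above all progesterone values of the 4 genes and turns the differences of Lama3, Lamb3 and Itgb4 into limits. With the second Lamb3 probe set in place of the first, 2 genes were 2-fold lower at each time. At that higher floor, 48 of all probe sets were 2-fold lower at 6 h, against 85, with 80 against 122 at 15 h, 90 against 139 at 18 h and 62 against 107 at 24 h, and 92 were higher at 12 h, against 141. The trend called 147 probe sets, against 285 with no floor or the floor at the 20th percentile, 1 with the floor at the 60th, 251 with quantile normalization, 0 with limma and no filter (1486 at an unadjusted p under 0.05) and 24 with the 0 h array added. With 1 array left out limma called 0 to 36; it called 0 without 6, 12 or 18 h, where 938, 1385 and 1421 had an unadjusted p under 0.05, 14 without 15 h and 36 without 24 h. None of the 4 genes passed in any of these fits. With the floor at the 60th percentile that was fixed beforehand, since all their progesterone values were set to it. With the 0 h array added, the fitted changes over 18 h of Lama3 and Itgb4 reversed to -0.60 and -0.66, by the construction of that fit. That of Itga6 turned positive with the 0 h array (0.00092), with no floor or the floor at the 20th percentile (0.25), and without 12 h (0.015) or 24 h (0.036), and lay between -0.26 and 0.036 with 1 array left out. The cause was not tested. Lama4, Sparc, Fos, Gap43 and Col1a1 rest on the same trend calls. No paired analysis was possible because each time has 1 array and the labels give no replicate numbers. The number of arrays limits the precision of every value, and the lower limit that of weak probe sets; the differences of Itgb4 were the same with and without a floor up to the 40th percentile.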

Other observations

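Met, the receptor of hepatocyte growth factor, which is known to associate with beta-4 integrin in epithelial tumour cells, was at 6.93 at 0 h and between 5.39 and 5.84 on the progesterone arrays, all under the floor. It was above the floor on the 0 h array alone and so was not analysed; its deposited difference, chosen for mention after its values were seen, is larger than the limit of -0.33 that the floor leaves. Trp63, the transcription factor of basal epithelial cells, read 6.41 at 0 h and 5.39 to 6.04 afterwards, under the floor on all arrays. Among genes of simple epithelium not named above, Dsp, the desmosomal plakin that anchors keratins at cell to cell contacts, was at -1.05 at 6 h and between -0.97 and -0.72 at later times. Cdh1 and Krt8 lay between -0.44 and -0.05 and between -0.43 and -0.18, and the claudin Cldn3 was above 0 h by 0.26 to 0.56 on its brighter probe set and between -0.07 and 0.80 on the other.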
